A study of Mus musculus with 4 samples.

Results

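Myt1l encodes a neuronal zinc finger transcription factor on mouse chromosome 12, and its acetylated chromatin contacts were described here in 2 classes of cortical inhibitory interneuron. The members were all interactions with at least 1 anchor overlapping chromosome 12 from 29.3 to 30.65 Mb (build mm9) by 1 bp or more. They numbered 125 of the 15011 interactions in all, 30 of 8278 in the somatostatin (SST) list and 95 of 6733 in the vasoactive intestinal peptide (VIP) list. The region was chosen because earlier results of these data had shown more VIP than SST interactions there, so the difference in number is a description and carries no test.

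Nuclei came from adult cortex of mice on a C57BL/6 background with the genotype Sst-cre; Sun1 or Vip-cre; Sun1. In such mice Cre turns on a tagged form of Sun1, a protein of the nuclear envelope, by which nuclei are captured (INTACT), so each group holds nuclei of cells in which that driver was or had been active. In the H3K27ac HiChIP assay, crosslinked chromatin is cut, ligated to neighbouring chromatin and precipitated with an antibody to acetylated lysine on histone H3, a mark of active promoters and enhancers. The labels describe 2 samples per cell type, and 1 interaction list per cell type was analysed, attached to the first replicate of each. The lists hold positions and no read counts, so sequencing depth is unknown, no spread between animals could be measured and no p-value is given. The driver lines were not checked against marker genes, as an mm9 annotation was not used here.

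Myt1l belongs to the MYT1 family of zinc finger factors together with Myt1 and St18. It is made in neurons of nearly every type, is best known for holding down genes of non-neuronal lineages, and is among the factors used to turn fibroblasts into neurons. Long neuronal genes often carry acetylated enhancers in their introns and in gene-poor DNA beside them, and chromatin loops bring such elements together. The gene runs near 30.21 to 30.61 Mb, and the remainder of the region up to 30.21 Mb is its upstream side. In the RefSeq gene order of GRCm38.p6, the next protein-coding gene upstream is Eipr1, with 5 noncoding genes or pseudogenes in between, and the next one downstream is Pxdn. Where Eipr1 lies in mm9 was not established here, so the outermost upstream anchors may lie on it or beyond it.

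The VIP list showed a dense mesh of contacts that was mostly upstream of Myt1l, and the SST list showed a smaller set that nearly always reached into the gene. Of the 95 VIP members (Poisson interval 76.9 to 116), 60 joined an upstream anchor to another upstream anchor, 31 joined an upstream anchor to the gene body and 4 stayed within the gene body. Of the 30 SST members (20.2 to 42.8), 1 joined upstream anchors to each other, 14 ran from upstream to the gene body and 15 stayed within the gene body. Among members with an upstream anchor, 93.3% in SST (14 of 15, exact interval 68.1 to 99.8%) and 34.1% in VIP (31 of 91, 24.5 to 44.7%) ended in the gene. The anchors at hand differed as well. Within 1 Mb, SST had 48 possible pairs of an upstream and a gene-body anchor and 15 pairs of upstream anchors. VIP had 89 and 210 such pairs. Linked shares by class are given below, and how far the anchors account for the contrast was not tested. Intervals in this text are at 95% and cover counting error alone, and interactions that share an anchor are not independent.

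Scaled to 1000 interactions of each list, the region held 14.1 VIP and 3.62 SST members, a ratio of 3.89 (2.56 to 6.08). The ratio was not even along the region. With both anchors upstream there were 8.91 VIP against 0.121 SST interactions per 1000. Members with at least 1 gene-body anchor numbered 35 in VIP and 29 in SST, or 5.20 against 3.50 per 1000. With both anchors in the gene body the order was the opposite, at 0.594 in VIP and 1.81 in SST, from 4 and 15 members. This count depends on how anchors were divided, as 1 VIP and 3 SST such members were left when anchors within 5 kb of each other were merged. Among 303 windows of the same length along the genome with 20 or more interactions, 30.7% were at least 2-fold higher in VIP and 8.91% had at most 10% of their interactions from SST. The Myt1l region met the first limit and not the second, as 24.0% of its interactions were from SST. Its upstream side alone, with 1 SST interaction among 61, met the second limit, as did 12.3% of 154 windows of that length counted with both anchors inside. The region was picked on this contrast, and nothing further is read from these shares.

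**Figure D1:**
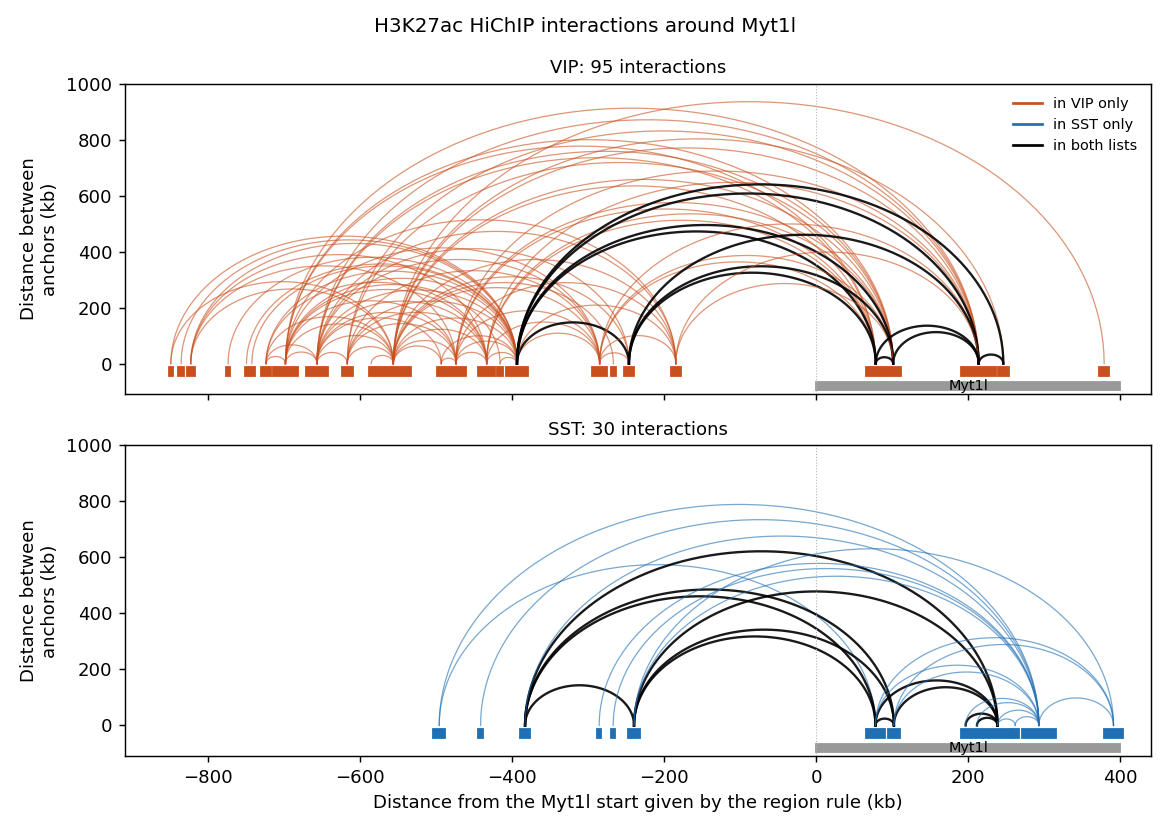
Interactions of the VIP list (top, 95) and the SST list (bottom, 30) drawn as arcs between anchor midpoints. The horizontal axis gives the distance in kb from the Myt1l start used by the region rule, and the height of an arc is the distance between its anchors in kb. Coloured blocks are anchors, the grey bar is the gene, and black arcs are the 12 interactions of each list that have a counterpart in the other list. VIP arcs crowd to the left of the gene, where SST has 6 anchors and a single link between upstream anchors.

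The far upstream side was occupied in VIP alone. The first VIP anchor began at 29357825 and the first SST anchor at 29705728, and the 348 kb between them held 12 of the 26 VIP anchors. Since this stretch was drawn up to the first SST anchor, it holds none by definition. It took part in 59 of the 95 VIP members (62.1%, interval 51.6 to 71.9%). Of these, 11 stayed within the stretch, 35 ran to upstream anchors nearer to the gene and 13 reached into the gene body. Without the stretch, 36 VIP members were left, or 5.35 per 1000, beside 30 in SST, or 3.62 per 1000. Since the border of the stretch was set by the SST anchors, leaving it out can remove VIP members only. The smaller difference that is left is fixed by that choice.

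A few anchors carried most of the far upstream links in VIP. The widest, at 29629989 to 29676999, took part in 20 interactions (12.2 to 30.9), 15 with upstream anchors and 5 with the gene body. It was also the starting point of the longest member, which spanned 936 kb to the anchor at 30582515 to 30595514 near the end of Myt1l. Farther from the gene, the anchor at 29538539 to 29567358 had 14 interactions and the one at 29495142 to 29527826 had 12. Each of them reached 3 gene-body anchors, over as much as 871 and 912 kb. Between them and the widest anchor lay one at 29585897 to 29599938 with 8 interactions, 2 of them in the gene body. A smaller one there, at 29620844 to 29627639, had 1. At the outer edge, 7 anchors between 29357825 and 29492707 had 1 to 5 interactions each and none in the gene body. Of their 35 possible pairs with VIP gene-body anchors, 15 were farther apart than the longest interaction of the VIP list, 995.5 kb, so these could not be listed. Links that ended in Myt1l were listed from the anchor starting at 29495142 onwards.

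Nearer to the gene, both lists had anchors, but they were connected differently. The upstream anchor with the most VIP interactions lay at 29801609 to 29830759, with 22 interactions (13.8 to 33.3), 18 upstream and 4 in the gene body. Only 7 VIP anchors of the whole list had more. The SST anchor that overlaps it, at 29820364 to 29833265, had 5 interactions, 1 upstream and 4 in the gene body. The VIP anchor at 29957075 to 29970007 had 7 interactions, 4 upstream and 3 in the gene body, and the overlapping SST anchor at 29961795 to 29978680 had 6, of which 1 was upstream and 5 in the gene body. The VIP anchors at 29765492 to 29787136 and 29914871 to 29935049 had 12 interactions each, where the overlapping SST anchors, 6.42 and 5.54 kb wide, had 1 each. In VIP the anchor at 29722515 to 29749416 had 13 interactions and that at 30018907 to 30031503 had 8, and neither overlapped an SST anchor.

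All 6 SST upstream anchors overlapped a VIP anchor, and these 6 sites gave nearly the same number of links to the gene in each list. From them, 14 SST members and 13 VIP members ran to the gene body. The links ended partly on different anchors, as 6 of the SST ones went to the anchor at 30480254 to 30525938, which has no VIP counterpart. The VIP anchors at 29711089 to 29721999 and 29940077 to 29946059 had 0 gene-body partners. To other upstream anchors, the same sites had 1 SST member and 39 VIP members. With anchors within 5 kb merged, the numbers were 10 and 8 to the gene body and 1 and 28 to upstream anchors. Only 6 of the 21 VIP upstream anchors overlapped an SST anchor, so many of these VIP links ran to anchors that SST lacked. Among the 6 sites themselves, the pair centred 393 and 242 kb upstream was linked in both lists. VIP alone linked 496 to 393, 434 to 393, 434 to 285, 393 to 285 and 285 to 242 kb. The remaining pairs were linked in neither list. With a single list per cell type, the difference in upstream links was not tested against a spread between animals.

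**Figure D2:**
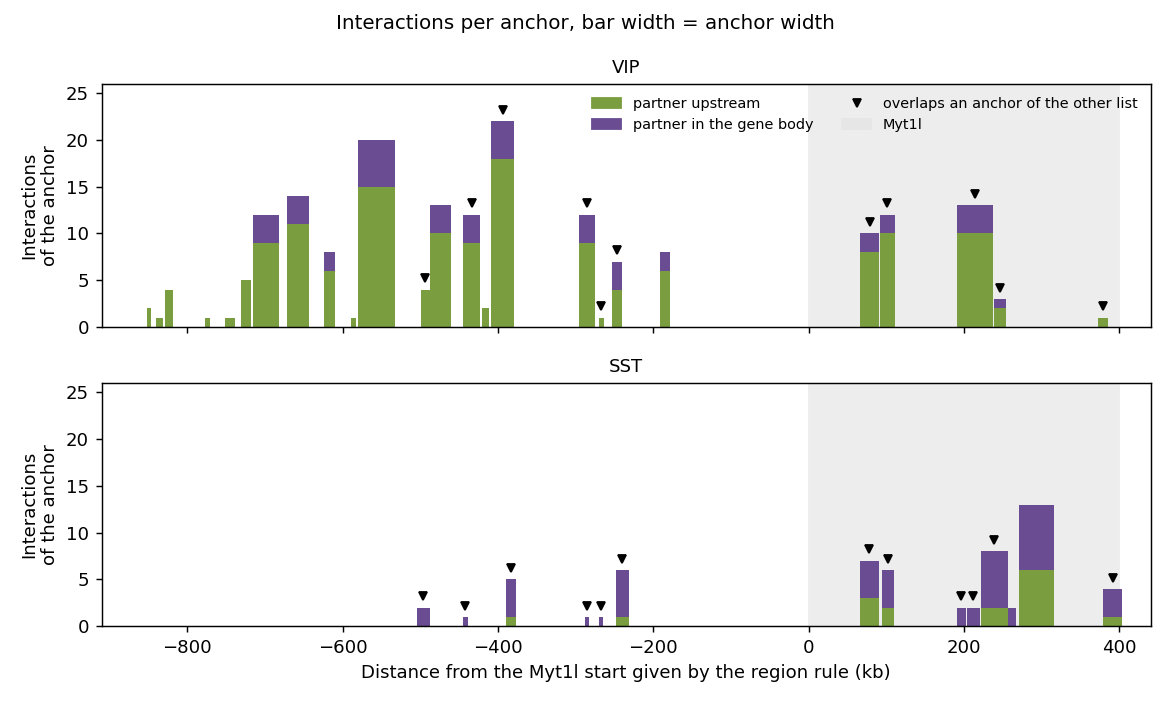
Number of interactions of each anchor in VIP (top, 26 anchors) and SST (bottom, 14 anchors), against the distance in kb from the Myt1l start. Bars are as wide as the anchor and are split into partners upstream (green) and in the gene body (purple), the shaded band is the gene, and black triangles mark anchors that overlap an anchor of the other list. VIP bars reach 22 upstream of the gene and are mostly green, and the highest SST bar, 13, lies inside the gene and has no triangle.

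Within Myt1l, the same first sites were listed in both cell types. The anchor at 30276025 to 30300692 in VIP had 10 interactions and its SST counterpart at 30275864 to 30300197 had 7. The next anchor, at 30301408 to 30321211 in VIP, had 12, and at 30304311 to 30320308 in SST it had 6. In VIP these 2 anchors drew 8 and 10 of their partners from upstream, and in SST 3 and 2. The following stretch began at 30400504 in both lists. VIP had a single anchor there, up to 30447289, with 13 interactions, 10 of them upstream, and a smaller one at 30448957 to 30463700 with 3. SST was divided into 3 anchors over the same stretch, with 2, 2 and 8 interactions, and the last of these, at 30431226 to 30466184, had 6 partners in the gene body and 2 upstream.

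The most connected SST anchor of the region lay deeper in the gene and had no VIP counterpart. It spanned 30480254 to 30525938, 45.7 kb in width, with its midpoint 293 kb from the start used for Myt1l. It took part in 13 of the 30 SST members (43.3%, interval 25.5 to 62.6%), 7 with the other gene-body anchors, which were 7 in number, and 6 with upstream anchors, which were 6 in number, so that it was linked to every other SST anchor of the region. The 3 longest SST members, of 789, 735 and 676 kb, all ended on it. The nearest VIP anchors lay 16.6 kb before and 56.6 kb after it. When anchors within 5 kb of each other were merged, it joined its neighbours into an anchor from 30400504 to 30525938 with 8 interactions. That wider anchor overlapped the merged VIP anchor at 30400504 to 30463700, while no VIP anchor reached the 45.7 kb of the SST anchor itself.

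No anchor of either list lay over the start of Myt1l used here. Between the last upstream anchor and the first gene-body anchor, 297 kb in SST and 245 kb in VIP held no anchor. The first gene-body anchor began 65.9 kb after the start in SST and 66.0 kb after it in VIP. An anchor enters a list only through a called interaction, so its absence does not show that the promoter lacked acetylation. The start is approximate, and moving it by 10 kb in either direction changed none of the counts by class, as no anchor lay that near. The last SST anchor, at 30589027 to 30613612, ran over the end of the gene and had 4 interactions, and the VIP anchor overlapping it, at 30582515 to 30595514, had 1.

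With an overlap of 1 bp as the rule, most contacts listed in both cell types belonged to 1 fully linked core of 5 sites. Of the SST members, 12 of 30 (40.0%, interval 22.7 to 59.4%) had a counterpart in VIP with both anchors overlapping by at least 1 bp, beside 21.4% over the whole SST list. Of the VIP members, 12 of 95 (12.6%, 6.70 to 21.0%) had a counterpart in SST, beside 25.8% over the whole VIP list. Of the SST anchors, 12 of 14 overlapped a VIP anchor, and of the VIP anchors, 11 of 26 overlapped an SST anchor, beside 36.9% and 43.5% over the whole lists. The region was picked for its excess of VIP interactions, and what this choice does to either share was not tested. These shares are thus set beside the list-wide values without reading a difference from them.

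The overlapping anchors fell into 10 sites, 6 upstream and 4 in the gene body, which can form 45 pairs. Both lists linked 10 of the pairs, SST alone linked 4, VIP alone linked 11, and neither linked 20. The 10 pairs linked in both lists were all of the pairs among 5 sites, centred 393 and 242 kb upstream of the start and 78, 101 and 223 kb inside the gene. These 5 sites span 616 kb from the first centre to the last. Each contact between them was thus listed in SST and in VIP, from the shortest, at 24.3 kb in SST and 23.0 kb in VIP, to the longest, at 622 kb in SST and up to 640 kb in VIP. The VIP contacts among the 10 sites that SST lacked involved the sites centred 496, 434 and 285 kb upstream. The SST contacts that VIP lacked were 3 to the site at the end of the gene and 1 from the site 496 kb upstream. With anchors within 5 kb merged there were 8 sites and 9 pairs linked in both lists, of which 6 joined a fully linked set of 4 sites.

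**Figure D3:**
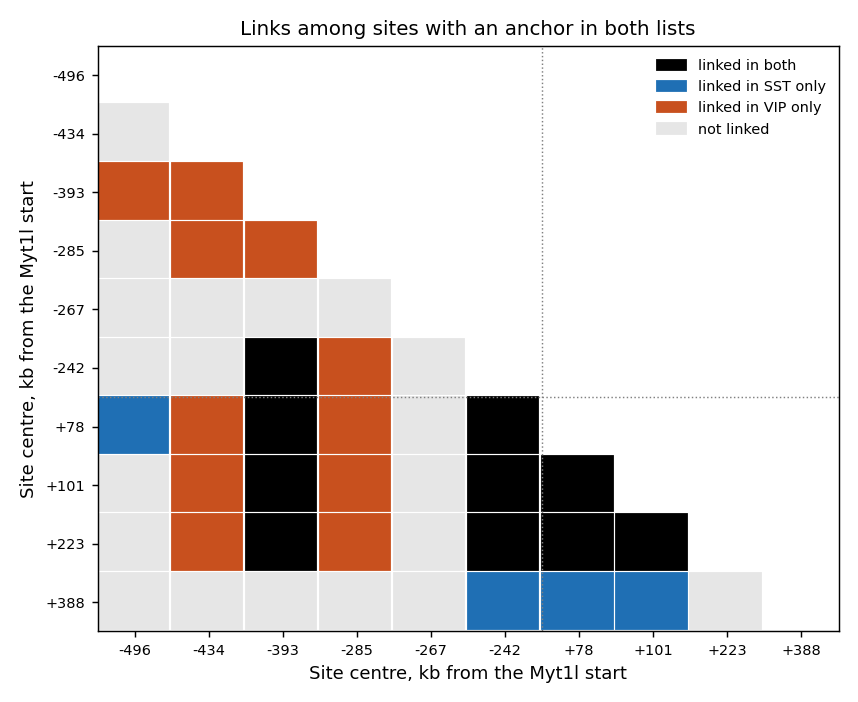
Pairs among the 10 sites that have an anchor in both lists, with each site named on both axes by its centre in kb from the Myt1l start (negative is upstream). Black squares are the 10 pairs linked in both lists, orange the 11 linked in VIP alone, blue the 4 linked in SST alone and grey the 20 linked in neither, and the dotted lines divide upstream from gene-body sites. The black squares are all of the pairs among the sites at -393, -242, +78, +101 and +223 kb.

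In each list, the members included a larger set of anchors that were all linked to each other. In SST this set had 6 anchors, which lie on the 5 core sites and on the anchor at 30480254 to 30525938. In VIP it had 10 anchors, 7 upstream and 3 in the gene body. Its upstream anchors ran from 29495142 to 29935049, and its gene-body anchors were those starting at 30276025, 30301408 and 30400504. Of the possible anchor pairs within 1 Mb, 33.0% were linked in SST (30 of 91) and 30.7% in VIP (95 of 309). By class, 28.6% of upstream pairs were linked in VIP (60 of 210, 22.6 to 35.2%) and 6.67% in SST (1 of 15, 0.169 to 31.9%). These intervals overlap, as SST had few upstream pairs. Pairs of an upstream and a gene-body anchor were linked at 34.8% in VIP (25.0 to 45.7%) and 29.2% in SST (17.0 to 44.1%), with intervals that overlap. Pairs within the gene body were linked at 53.6% in SST (15 of 28, 33.9 to 72.5%) and 40.0% in VIP (4 of 10, 12.2 to 73.8%), also with overlapping intervals. SST also had more anchors in the gene, 8 against 5, and whether this accounts for its higher count there was not tested.

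Contacts around Myt1l were longer than usual for the VIP list, a trait also seen in some other regions rich in VIP interactions, given below. SST members had a median of 301 kb between anchor midpoints (order-statistic interval 136 to 485 kb) and VIP members one of 305 kb (263 to 372 kb), beside 178 kb and 167 kb over the whole lists. The whole-list median lies inside the interval of the members for SST and below it for VIP. Distances ran from 23.2 to 789 kb in SST and from 19.4 to 936 kb in VIP. Members over 500 kb made up 30.0% of SST and 23.2% of VIP, beside 15.6% and 13.2% of the whole lists. By class, the median from upstream to the gene body was 567 kb for SST and 635 kb for VIP, within the gene body it was 96.4 kb and 72.5 kb, and it was 216 kb between upstream anchors in VIP. Every member from upstream to the gene body crosses the stretch around the gene start that held no anchor.

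The linked share of the most distant anchor pairs was higher in the region than in the rest of the list. At 600 to 1000 kb, 25.8% of VIP pairs in the region were linked (17 of 66, 15.8 to 38.0%), against 7.14% of pairs in the rest of the list (6.58 to 7.74%). In SST the values were 26.3% (5 of 19, 9.15 to 51.2%) and 7.49%. The longest of these SST links, of 789, 735 and 676 kb, all ended on the anchor at 30480254 to 30525938. At 400 to 600 kb the shares were 25.9% (15.3 to 39.0%) and 17.6% in VIP and 30.4% (13.2 to 52.9%) and 17.7% in SST, within counting error of each other. At 200 to 400 kb they were 37.5% (26.9 to 49.0%) and 24.7% in VIP, and 38.5% (13.9 to 68.4%) and 21.6% in SST, the latter within counting error. Up to 50 kb they were 42.3% (23.4 to 63.1%) and 47.8% in VIP and 55.6% (21.2 to 86.3%) and 46.6% in SST, also within counting error. In VIP the number of links was part of how the region was chosen, and pairs share anchors, so these values are descriptions.

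**Figure D4:**
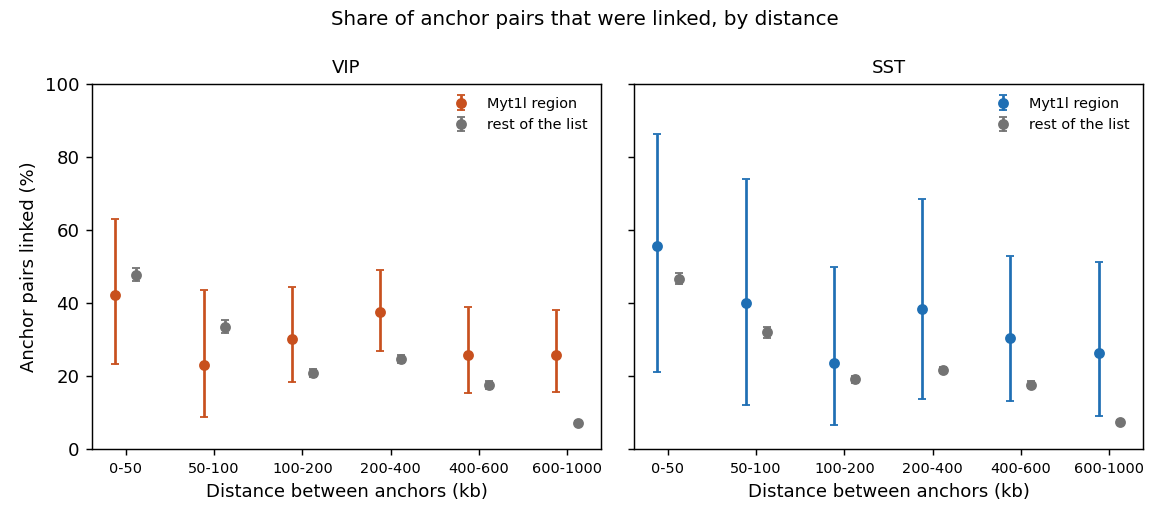
Percent of anchor pairs that were linked, by the distance between the anchors in kb, for VIP (left) and SST (right). Coloured points are pairs in the Myt1l region and grey points pairs in the rest of the list, and bars are exact binomial intervals. At 600 to 1000 kb the region stood at 25.8% in VIP and 26.3% in SST and the rest of the lists at 7.14% and 7.49%.

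The members formed a closed group on the chromosome. No member had an anchor outside the region, and in each list all members were joined in 1 connected network. The nearest listed anchor before the region ended at 28030948 in both lists, 1327 kb from the first VIP member anchor and 1675 kb from the first SST member anchor. After the region, the next VIP anchor began at 32650958, 2055 kb from the last member anchor, and the next SST anchor at 46086746. All of these gaps exceed the longest listed interaction, 995.5 kb in VIP and 1000 kb in SST. No listed interaction could thus have joined the members to those anchors. An anchor enters a list only through a called interaction, so the gaps and the closure cannot be told apart. Why no contact was listed across the borders of the region was not tested. The members made up 19.4% of the 489 VIP interactions and 6.73% of the 446 SST interactions of chromosome 12. In VIP, 10 of the 26 member anchors (38.5%) had 10 or more interactions, beside 4.27% of all VIP anchors, and in SST 1 of 14 had, beside 4.43%. A region picked for its excess of VIP interactions tends to hold such VIP anchors, so nothing is read from the VIP share.

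The layout of the upstream side was set beside other windows of 1 Mb with a large excess of VIP interactions. In the window from 29 to 30 Mb on chromosome 12, where interactions were placed by their midpoint, 9 of the 24 VIP anchors overlapped an SST anchor, beside 43.5% of anchors over the whole VIP list. These anchors included some in the gene body, and of the 21 VIP upstream anchors alone 6 overlapped an SST anchor. In the 3 windows on other chromosomes with the largest excess, this was so for 1 of 22 anchors (chromosome 4, 75 to 76 Mb), 0 of 16 (chromosome 19, 48 to 49 Mb) and 0 of 21 (chromosome 7, 118 to 119 Mb). Placed by midpoint, SST interactions were about as rare in all of them, with 1 on chromosome 12 and 0 in each of the others. The 14 SST members from upstream to the gene body had midpoints beyond 30 Mb and were not counted. The largest set of anchors that were all linked to each other held 7 anchors in each of these 4 windows. The share of linked pairs was 25.3% on chromosome 12, 31.2% on chromosome 4, 27.5% on chromosome 7 and 50.8% on chromosome 19. The median distance was 265 kb on chromosome 12, 353 kb on chromosome 4, 287 kb on chromosome 7 and 158 kb on chromosome 19. The whole VIP list had 167 kb, so long contacts were not particular to the Myt1l region. All 4 windows were picked for their excess in VIP, and no difference between them was tested.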

How the data were processed

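H3K27ac HiChIP of SST and VIP nuclei is described by 4 samples, of which the first replicate of each cell type came with an interaction list. The deposited lists have 6 columns without a header, the chromosome, start and end of each anchor. HiC-Pro and build mm9 are named in the submitters' processing notes. No source used here gives the caller of the interactions, its cut-off, how anchors were made or any pooling of replicates. It is unknown if starts are 0-based, which could move a start by 1 bp.

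The region and gene span were taken from the rule that defined the members. The members, lists and named anchors were chosen with earlier results of these data known. Named anchors were the 5 with the most interactions per list on each side of the gene start, with ties, and the longest and shortest members. An interaction counted as shared if each of its anchors overlapped the matching anchor of a single interaction of the other list by 1 bp or more. Distances run between anchor midpoints, and anchor pairs were counted up to 1 Mb apart. Intervals are exact (Clopper-Pearson, Poisson) or order-statistic. Background windows were tiled from the first base of each chromosome. The overlap step was tested on simulated lists. The GRCm38.p6 gene table served for gene order alone, and anchor sequences were not used here. Python 3.11.15, numpy 2.4.6, scipy 1.17.1, networkx 3.6.1 and matplotlib 3.10.9 were used.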

Additional observations from a re-analysis of the deposited data

How the results depend on the processing

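Of 64 alternatives, 26 had nothing to act on, since no anchor lay near the gene start or outside the region. Of the other 38, 23 stayed within the counting interval or within 1.5 times the count, 15 moved and 0 reversed. Anchors within 5 kb merged left 14 SST and 58 VIP members, 3 SST members within the gene body, and 38, 19 and 1 VIP members between upstream anchors, from upstream to gene body and within the gene body. The busiest anchor then had 8 interactions in SST and 14 in VIP, and 71.4% of SST members were shared. The far upstream stretch still held 8 VIP anchors without an SST counterpart, with 39 of the 58 members. Merging for classes and sharing was chosen after seeing the data. Up to 200 kb there were 13 SST and 33 VIP members with medians of 81.5 and 99.6 kb, which follows from the limit. Identical anchors left 0% of SST and 0% of VIP members shared. Where 50% or more of the smaller anchor had to be covered, 30.0% of SST and 8.42% of VIP members were shared. With anchors allowed to lie up to 10 kb apart, the shares were 46.7% and 14.7%. Fewer and wider anchors give fewer links by construction. No replicate could be left out. No paired analysis was possible because the lists hold no value per replicate. Depth is unknown, so a contact that is not listed may still exist below the detection limit.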
